A study of Mus musculus with 48 samples.

Results

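The miRNAs of the imprinted Dlk1-Dio3 region were taken from a count table of mature miRNAs by their numbers: 46 miRNA numbers of this region, with any letter suffix and either arm, gave 99 of the 1978 miRNAs in the table. They come from 50 hairpins. The region is imprinted: its miRNAs are made from the maternal chromosome, out of long noncoding transcripts that run through Meg3, the strand opposite to Rtl1, Rian and Mirg. The paternal chromosome instead expresses the protein-coding genes Dlk1, Rtl1 and Dio3. These miRNAs are known for high expression in the brain, the embryo and the placenta, and several of the Mirg part, such as miR-134, act on dendrites and synapses in rat neurons.

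The members were measured by short RNA sequencing in 2 ganglia of Balb/c mice aged 2.5 months, with 48 libraries in all. The trigeminal ganglion (TG) holds the sensory neurons of the face, and the superior cervical ganglion (SCG) holds sympathetic neurons that supply the head. Mice of both sexes were injected intraperitoneally with lipopolysaccharide (LPS) of E. coli O55:B5, an endotoxin that provokes inflammation throughout the body, at a dose of 2.5 mg/kg and a volume of 0.2 mL, or with the same volume of saline. Ganglia were taken at 4 h, 24 h or 7 d, which gave 12 groups of 4 libraries: TG after LPS, TG after saline, SCG after LPS and SCG after saline, each at the 3 times, and each with 2 male and 2 female libraries. Every mouse was injected, so no group is free of the injection itself. Each library holds both ganglia of one kind from 1 mouse, a part of the extracted RNAs was sequenced, and the labels do not say which TG and SCG libraries share a mouse. Levels are given in CPM, each miRNA's share of a library's miRNA counts scaled to one common total, after one normalization of all 48 libraries. Total miRNA counts per library ran from 1774047 to 5592766.

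Of the 99 members, 66 had counts in all 48 libraries, 29 in some, and 4 in none (miR-496b, miR-654-5p, miR-654-3p and miR-758-5p, an upper limit of 0.0173 CPM over all libraries from 3 counts, for counting error only). The expression filter kept 74 members in TG, 80 in SCG and 79 in the comparison of the ganglia after saline. RefSeq gave mature sequences for 95 members, on build GRCm38.p6. Of these, 94 lie on chromosome 12, between positions 109563692 and 109743795, a span of 180.1 kb, and 92 are on the plus strand. miR-496b, which the numbers also pick up, lies on another chromosome in RefSeq and had no counts. The members were assigned by hand to 4 groups along the region, called here after the noncoding gene they belong with: the Meg3 end, Rtl1 antisense, Rian and Mirg.

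The sequences below are the mature forms that the results turn on, 5′ to 3′ from RefSeq (GRCm38.p6), with the seed (bases 2 to 8), which directs target pairing, in capitals. The first 4 were the most abundant members, the next 4 were among the 8 members with the largest falls in TG relative to SCG, miR-381-3p was an abundant member that also differed, miR-299a-3p was the clearest exception to them, and the last pair were the only members called after LPS.
miR-127-3p: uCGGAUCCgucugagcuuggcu
miR-434-5p: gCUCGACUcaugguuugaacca
miR-541-5p: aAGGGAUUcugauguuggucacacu
miR-379-5p: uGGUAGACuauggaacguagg
miR-323-3p: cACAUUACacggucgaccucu
miR-409-3p: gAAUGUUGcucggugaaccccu
miR-673-5p: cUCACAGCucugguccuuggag
miR-370-3p: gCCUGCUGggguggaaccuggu
miR-381-3p: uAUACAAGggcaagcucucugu
miR-299a-3p: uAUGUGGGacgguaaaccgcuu
miR-369-5p: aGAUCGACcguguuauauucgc
miR-495-3p: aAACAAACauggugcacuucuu

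The cluster is not a seed family. The 95 matched members carried 88 different seeds, and 7 seeds were shared by a pair of members each. The pairs below share a seed or nearly a whole sequence, so that reads of one member could be counted to the other. The arms of miR-299a and miR-299b come from hairpins on opposite strands of one site and are identical where they overlap, miR-376b-5p and miR-376c-5p differ at 1 base, and miR-379-3p and miR-411-3p at 2. The levels of such pairs are uncertain in how they divide.
miR-299a-3p: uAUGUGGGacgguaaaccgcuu
miR-299b-3p: uAUGUGGGacgguaaacc
miR-376b-5p: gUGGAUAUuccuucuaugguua
miR-376c-5p: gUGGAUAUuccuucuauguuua
miR-379-3p: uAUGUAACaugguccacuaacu
miR-411-3p: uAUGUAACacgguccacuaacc

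Before the comparisons, libraries that stand apart have to be named. In SCG 7 d LPS replicate 2, a female library, the members together reached 2933 CPM. The other 3 libraries of its group reached 53757, 62079 and 56954 CPM, a mean 19.6 times higher. All 80 tested members were below each of those 3 libraries there, as were 52.0% of the 506 miRNAs tested in SCG, and the median log2 difference was -3.87 for the members and -0.42 for all miRNAs tested. Among the 50 members with a mean of at least 30 CPM in the other 3 libraries, the loss was smallest for miR-299a-3p, 2.81 times lower than its mean of 36.6 CPM in the others. miR-770-3p was 253 times lower (1.63 CPM, against 411 CPM), and miR-323-3p 115 times lower (5.86 CPM, against 671 CPM). miR-758-3p had no count there, at least 157 times lower than its mean of 153 CPM in the other 3 (floor of 3 counts per library).

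The same library had more of every marker list examined than the mean of the other 3 (summed CPM): 22.3 times more of 4 leukocyte miRNAs, 43.1 times more of 4 muscle miRNAs, 16.2 times more of 8 epithelial and pituitary miRNAs, and 2.56 times more of 12 central neuron miRNAs. 6 saline libraries stood apart in the marker lists. In SCG 4 h saline replicates 1 and 2, both female, the muscle list summed to 94343 and 20095 CPM, against a median of 510 CPM over the 12 saline SCG libraries, and replicate 1 also had 12838 CPM of the epithelial and pituitary list, against 278 to 967 CPM in the other 11. In SCG 24 h saline replicate 1 the sensory neuron list summed to 21072 CPM, against 783 to 6813 CPM in the other 11. In TG 7 d saline replicates 1, 2 and 4 the central neuron list summed to 61157, 60953 and 56565 CPM, against 33288 CPM in replicate 3 and 28222 to 38151 CPM in the 8 earlier saline TG libraries. The labelled ganglia showed in the markers of sensory neurons: miR-183-5p, miR-96-5p and miR-182-5p together reached 70633 ± 9826 CPM in TG and 3620 ± 5738 CPM in SCG after saline (SD, n = 12 each), or 2034 ± 1731 CPM in SCG without SCG 24 h saline replicate 1 (n = 11).

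**Figure D1:**
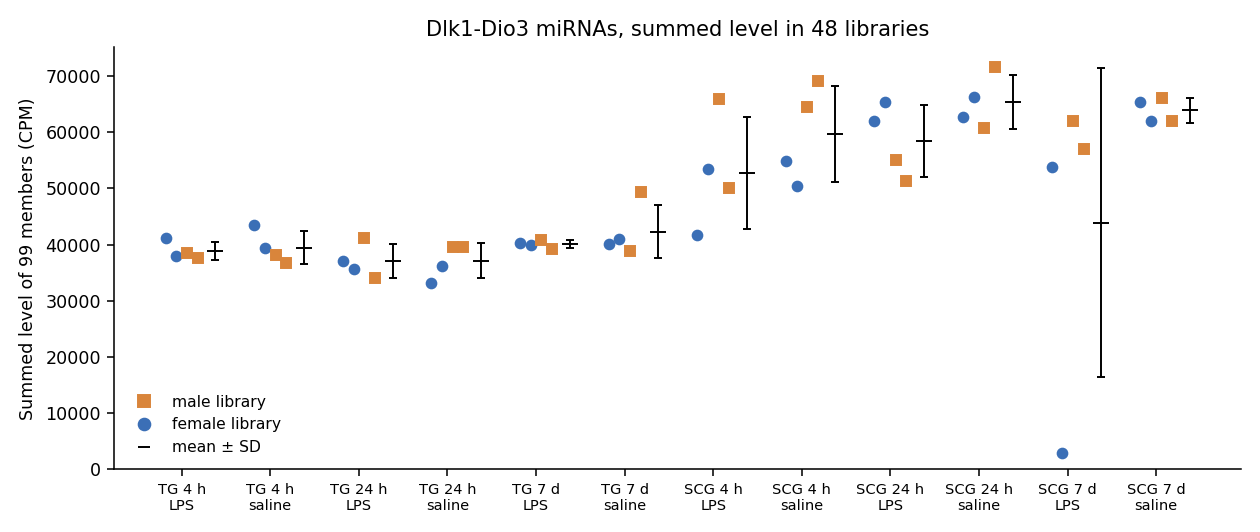
Summed level of the 99 members in CPM (vertical axis) for each of the 48 libraries, by ganglion, time and treatment (horizontal axis). Squares are male and circles female libraries, and bars are mean ± SD of 4 libraries. The TG libraries lie between 33241 and 49346 CPM, and one SCG library, SCG 7 d LPS replicate 2, lies at 2933 CPM, below all others.

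**Figure D2:**
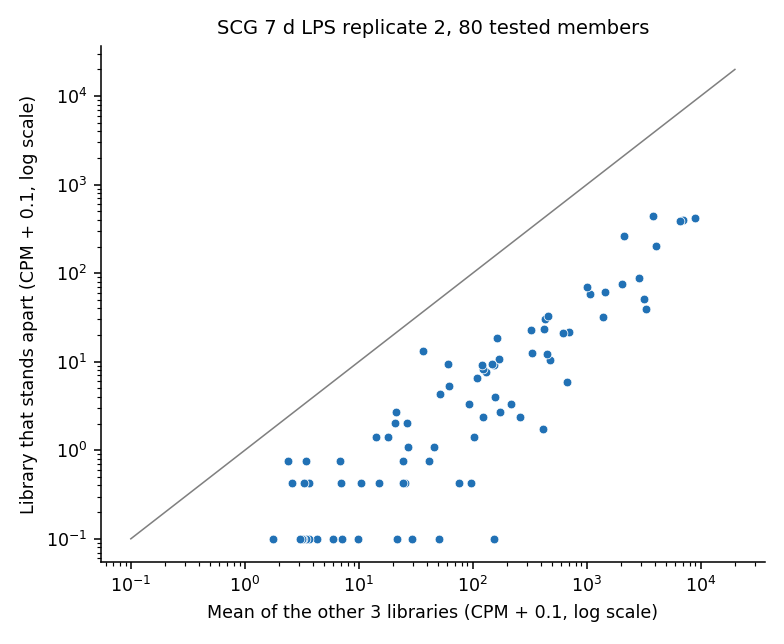
Level of each of the 80 tested members in SCG 7 d LPS replicate 2 (vertical axis) against its mean in the other 3 libraries of the group (horizontal axis), both as CPM + 0.1 on log scales. The line marks equal levels, and all 80 points lie below it.

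The members made up 3.13% to 5.27% of all miRNA counts in TG and, SCG 7 d LPS replicate 2 aside, 3.56% to 8.09% in SCG. A few members held most of this. miR-127-3p, one of the miRNAs that can pair fully with the Rtl1 transcript, averaged 7301 CPM in TG and 9592 CPM in the other 23 SCG libraries, 18.7% and 16.1% of the members' sum. miR-434-5p, also from the strand opposite to Rtl1, held 18.4% in TG and 11.5% in SCG. miR-541-5p, at the far end of Mirg, held 8.20% and 12.8%, and miR-379-5p, the first miRNA of the Mirg group, 9.39% and 6.85%. The next members overall were miR-381-3p, miR-543-3p, miR-411-5p, miR-382-5p, miR-370-3p and miR-409-3p. The 10 highest members of each ganglion made up 78.5% of the sum in TG and 77.1% in SCG. Ligation captures miRNA sequences unequally, so these shares are of counts and not of molecules.

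The comparison of the ganglia shows how the cluster differs between a sensory and a sympathetic ganglion. After saline, the members were lower in TG. Their sum was 39625 ± 3993 CPM in TG (33241 to 49346), against 62994 ± 5821 CPM in SCG (50399 to 71677), with SD over n = 12 each. In CPM the 12 TG libraries lay below all 12 SCG libraries. The highest TG sum was that of TG 7 d saline replicate 4, and the lowest SCG sum that of SCG 4 h saline replicate 2. Both are among the libraries named above as standing apart. As shares of miRNA counts before normalization, 5.27% and 5.08%, their order was reversed. Of the 79 tested members, 64 fell and 3 rose in TG relative to SCG, and 12 did not pass (edgeR quasi-likelihood test, Benjamini-Hochberg adjusted p under 0.05 over 541 miRNAs). The ganglia differed in most miRNAs: 66.4% of all those tested were called, 31.4% higher and 34.9% lower in TG. The median log2 fold change was -0.82 over the members and -0.00 over all miRNAs tested. Without TG 7 d saline replicates 1, 2 and 4 and SCG 4 h saline replicate 1, 64 members were lower and 3 higher in TG, beside 62.6% of all miRNAs (30.7% higher, 31.9% lower). Without all 6 saline libraries named above as standing apart, 65 were lower and 3 higher of 80 tested, beside 62.2% of all miRNAs (30% higher, 32.2% lower). In bulk ganglia, fewer cells of a type and less RNA per cell cannot be told apart.

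The largest falls were those of miR-323-3p and miR-409-3p, both in Mirg. miR-323-3p ranged from 84.1 to 136 CPM in TG with a median of 95.9, against 461 to 854 CPM in SCG with a median of 711. The ranges are far apart, and the log2 fold change was -2.84 ± 0.09 (SE; adjusted p = 6.36e-18). miR-409-3p ranged from 526 to 813 CPM in TG (median 574), against 2585 to 4243 CPM in SCG (median 3629), a log2 fold change of -2.66 ± 0.09. miR-673-5p, of the Meg3 end, ranged from 30.1 to 48.6 CPM in TG (median 39.1), against 136 to 290 CPM in SCG (median 188), a log2 fold change of -2.39 ± 0.11. For all of these, every TG library was below every SCG library. miR-370-3p, of the Rian group, ranged from 734 to 1537 CPM in TG (median 842), against 2583 to 3800 CPM in SCG (median 3367), a log2 fold change of -1.96 ± 0.09. Its highest TG value was TG 7 d saline replicate 4, one of the libraries with a raised central neuron list.

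Both arms of miR-323 and of miR-487b were among the falls. miR-323-5p had a median of 13.8 CPM in TG and 57.0 CPM in SCG (log2 fold change -2.23 ± 0.20), and miR-487b-3p one of 17.6 CPM in TG and 89.3 CPM in SCG (-2.23 ± 0.16). The other members among the 8 largest falls were sparse. miR-412-3p averaged 0.739 ± 0.400 CPM in TG and 3.87 ± 1.52 CPM in SCG (-2.43 ± 0.26), and miR-487b-5p 0.472 ± 0.300 CPM in TG and 2.55 ± 1.13 CPM in SCG (-2.42 ± 0.35; SD, n = 12 each).

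Only 3 members were called higher in TG, and all lie at the start of the Mirg group. miR-299a-3p ranged from 47.5 to 62.9 CPM in TG (median 53.8), against 26.4 to 42.4 CPM in SCG (median 33.5), with no overlap and a log2 fold change of 0.61 ± 0.06 (adjusted p = 2.14e-08). Its other arm, miR-299a-5p, ranged from 5.64 to 11.7 CPM in TG and from 2.40 to 9.18 CPM in SCG, which overlap (0.58 ± 0.18). miR-379-3p ranged from 128 to 154 CPM in TG and from 100.4 to 132 CPM in SCG (0.21 ± 0.05). The opposite arm of that hairpin, miR-379-5p, averaged 3634 ± 338 CPM in TG and 4228 ± 444 CPM in SCG, and was called lower (-0.29 ± 0.07).

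**Figure D3:**
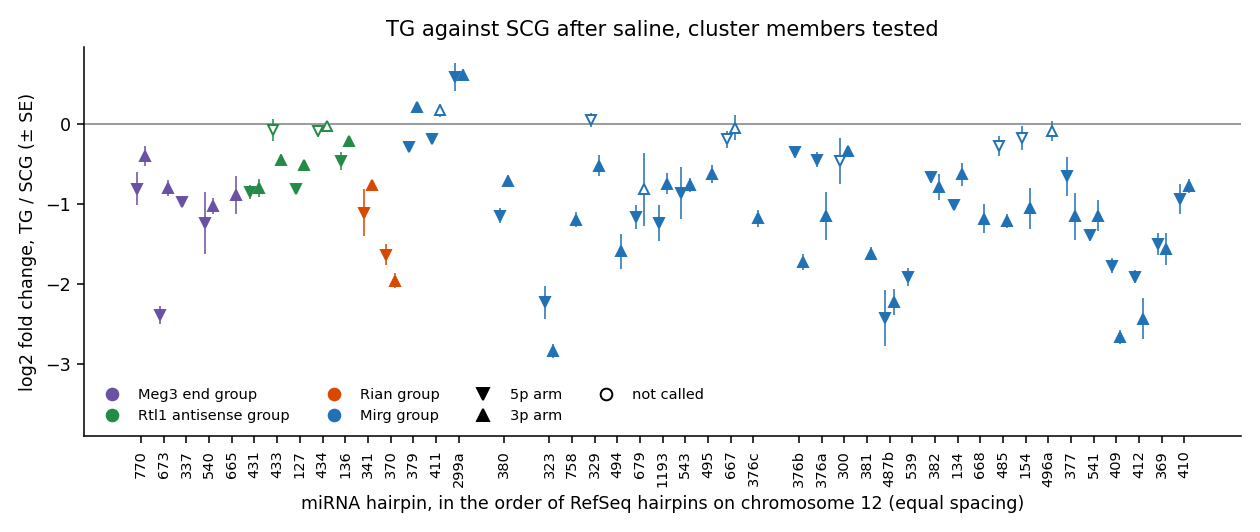
log2 fold change of TG over SCG after saline, with its SE (vertical axis), for the tested members whose hairpin RefSeq places on chromosome 12, in genome order at equal spacing (horizontal axis). Colours give the position group, triangles the arm, and open symbols members that were not called. Most points lie below 0, the Rtl1 antisense group is nearest to it, and both arms of miR-299a are the highest.

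By position group, the counts of called members were as follows, beside 34.9% of all 541 miRNAs called lower in TG and 31.4% higher. At the Meg3 end all 8 tested members were lower in TG (median log2 fold change -0.93), as were all 4 of the Rian group (median -1.37). In Mirg 45 of 57 tested members were lower, 3 were higher and 9 were not called (median -0.94). In the Rtl1 antisense group 7 of 10 were lower and 3 were not called, with a median of -0.46. That group holds the most abundant members. miR-127-3p averaged 7424 ± 808 CPM in TG and 10092 ± 945 CPM in SCG (-0.51 ± 0.06), while miR-434-5p averaged 7163 ± 475 CPM in TG and 7311 ± 971 CPM in SCG, and was not called (-0.10 ± 0.07, adjusted p = 0.204). The groups are of unequal size and were not tested against each other.

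Among the remaining abundant members, miR-541-5p averaged 3241 ± 335 CPM in TG and 8141 ± 1098 CPM in SCG (-1.40 ± 0.07), and miR-381-3p 1424 ± 243 CPM in TG and 4178 ± 399 CPM in SCG (-1.62 ± 0.08). miR-543-3p averaged 1953 ± 435 CPM in TG and 3155 ± 409 CPM in SCG (-0.77 ± 0.09), and miR-382-5p 1673 ± 255 CPM in TG and 2535 ± 327 CPM in SCG (-0.67 ± 0.07). miR-411-5p was nearly level, at 2085 ± 223 CPM in TG and 2271 ± 271 CPM in SCG, but was called lower (-0.19 ± 0.07). Counted by library, 23 members had all 12 TG libraries below all 12 SCG libraries, as did 9.61% of all miRNAs tested, and 1 member, miR-299a-3p, had all TG libraries above, as did 9.98%.

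Of 17 other miRNAs of the same region, with numbers outside the member list, 5 passed the filter. The most abundant was miR-493-5p, at 297 ± 36.1 CPM in TG and 335 ± 81.9 CPM in SCG after saline (-0.21 ± 0.09). It, miR-493-3p (-0.65 ± 0.13) and miR-1188-5p (-0.47 ± 0.20) were called lower in TG after saline, and miR-3070-2-3p was called higher, at 6.34 ± 1.70 CPM in TG and 4.05 ± 1.88 CPM in SCG (0.60 ± 0.21). miR-3070-2-3p was also called higher after LPS (1.32 ± 0.29).

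After LPS the same comparison called 37 members lower and 2 higher in TG of 80 tested, beside 51.6% of all miRNAs (24.3% higher, 27.3% lower). Without SCG 7 d LPS replicate 2 it called 59 lower and 6 higher, beside 69.2% of all (34.2% higher, 35% lower). With the 7 d libraries alone 41 members were called after saline (1 higher, 40 lower), beside 42.9% of all miRNAs (20.5% higher, 22.4% lower). After LPS 0 were called at 7 d, beside 9.53% (4.26% higher, 5.27% lower). There 1 member had an unadjusted p under 0.05, beside 122 of 493 miRNAs. This 7 d LPS fit includes SCG 7 d LPS replicate 2 among its SCG libraries and was not repeated without it. In the LPS comparison over all times and libraries, the smallest p values were those of miR-487b-3p, miR-299a-3p and miR-673-5p. miR-487b-3p averaged 18.1 ± 2.95 CPM in TG (n = 12) and 91.2 ± 13.8 CPM in the 11 other SCG libraries after LPS. Its log2 fold change was -2.21 ± 0.30 with all libraries and -2.35 ± 0.10 without that one. miR-673-5p averaged 39.9 ± 6.23 CPM in TG and 172 ± 43.5 CPM in the 11 (-1.98 ± 0.28 with all libraries, -2.11 ± 0.12 without). miR-299a-3p was again higher, at 59.2 ± 5.41 CPM in TG and 33.3 ± 6.26 CPM in the 11 (0.92 ± 0.13 with all libraries, 0.83 ± 0.09 without). The saline and the LPS comparison use different libraries.

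The 2 arms of a hairpin come from one precursor, and the ratio of their counts within a library needs no scaling between libraries. This ratio, log2 of 5p over 3p counts with 0.5 added to each, differed between TG and SCG after saline for 13 of 34 member hairpins tested with limma (adjusted p under 0.05), 38.2%, beside 35.0% of all 157 hairpins tested. Of the 13, 7 were shifted to the 5p arm in TG and 6 to the 3p arm. With all saline libraries the share is near that of all hairpins. Without TG 7 d saline replicates 1, 2 and 4 and SCG 4 h saline replicate 1, 15 of 34 were called (44.1%), beside 32.5% of 169 hairpins. Without all 6 saline libraries that stand apart, 15 of 34 were called (44.1%), beside 31.0% of 168. In each case 7 were shifted to the 5p arm in TG and 8 to the 3p arm.

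The largest shifts were in miR-673 and miR-376b, whose hairpins (RefSeq, GRCm38.p6, plus strand) follow with the 5p and 3p arms in capitals. They lie at chr12:109571990-109572080 and chr12:109723458-109723539.
mir-673: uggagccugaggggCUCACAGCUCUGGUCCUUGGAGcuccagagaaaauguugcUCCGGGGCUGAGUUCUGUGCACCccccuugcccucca
mir-376b: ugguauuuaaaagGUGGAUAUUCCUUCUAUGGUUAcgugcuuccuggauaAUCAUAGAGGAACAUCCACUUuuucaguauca

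For miR-673 the log2 ratio ranged from 0.77 to 1.82 in TG (median 1.35), against 2.47 to 3.64 in SCG (median 2.91), a difference of -1.57 ± 0.14 (SE; adjusted p = 7.61e-09). The ranges do not overlap. The 5p arm was much lower in TG (39.8 ± 4.46 CPM, against 201 ± 48.3 CPM in SCG), the 3p arm less so (15.5 ± 2.93 CPM, against 25.7 ± 3.99 CPM). For miR-376b the log2 ratio ranged from 1.47 to 2.18 in TG (median 1.65), against 0.00 to 0.86 in SCG (median 0.31), a difference of 1.35 ± 0.09 (adjusted p = 1.39e-10), also without overlap. Here the 3p arm was the one much lower in TG (38.5 ± 4.70 CPM, against 122 ± 23.1 CPM in SCG), beside the 5p arm at 129 ± 19.4 CPM in TG and 158 ± 12.2 CPM in SCG. The 5p arm is the one that differs from miR-376c-5p at 1 base.

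The ranges of miR-485 and miR-409 were also apart. The log2 ratio of miR-485 ranged from 1.38 to 2.15 in TG and from 0.50 to 1.24 in SCG (0.96 ± 0.09), and that of miR-409 from -3.11 to -2.73 in TG and from -4.41 to -3.46 in SCG (0.88 ± 0.09). Those of miR-154 (0.92 ± 0.19) and miR-323 (0.64 ± 0.21) overlapped between the ganglia. The miR-323 difference was 0.54 ± 0.21 (limma adjusted p = 0.0647) without TG 7 d saline replicates 1, 2 and 4 and SCG 4 h saline replicate 1, and 0.42 ± 0.23 (adjusted p = 0.178) without all 6 libraries that stand apart, so it was then not called. miR-154-3p had only 2 to 15 counts per TG library. In the LPS libraries, which this test did not use, the mean log2 ratio of miR-673 was 1.73 ± 0.28 in TG and 2.90 ± 0.40 in SCG. That of miR-376b was 1.73 ± 0.18 in TG and 0.26 ± 0.24 in SCG (SD, n = 12 each). These SCG means include SCG 7 d LPS replicate 2, which had few counts. Its 5p and 3p counts were 33 and 2 for miR-673, a ratio of 3.74 and the highest in SCG after LPS. They were 28 and 28 for miR-376b. The order of the ganglia was the same as after saline for both hairpins.

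**Figure D4:**
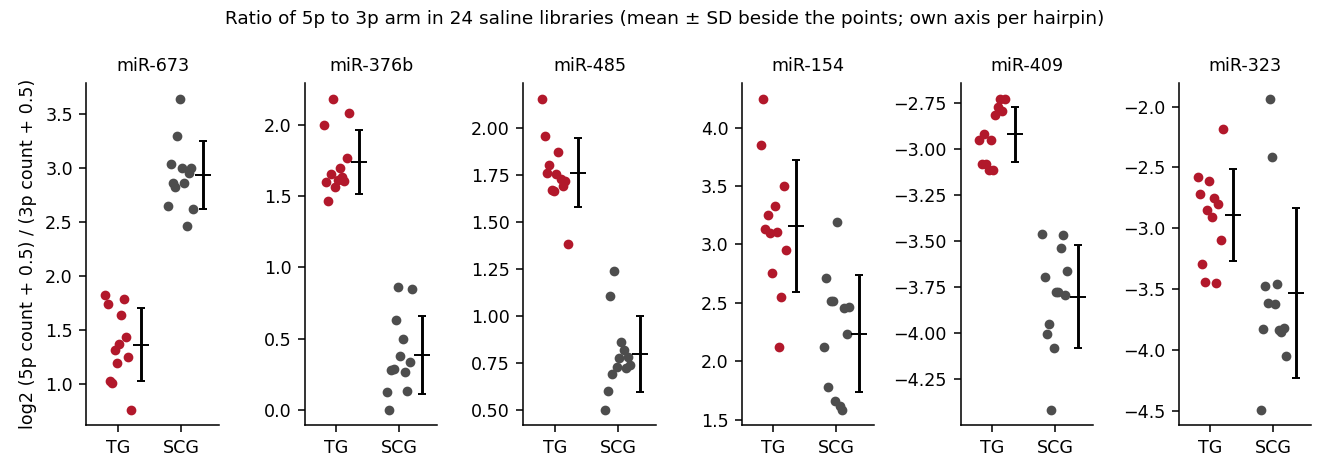
log2 ratio of 5p to 3p counts, with 0.5 added to each (vertical axis, one scale per hairpin), in the 12 TG and 12 SCG saline libraries for the 6 called hairpins with the largest difference. Points are libraries and bars are mean ± SD. miR-673 is lower in TG, the other 5 are higher, and the points of miR-154 and miR-323 overlap between the ganglia.

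The response of the cluster to LPS was asked at each time. In SCG no member was called at 4 h, 24 h or 7 d (0 of 80 each), beside 0, 0.395% and 0.593% of the 506 miRNAs tested. DESeq2 called 0 as well, beside 0.198%, 1.38% and 10.3% of all miRNAs. With all libraries no member had an unadjusted p under 0.05 at any time, beside 13, 24 and 103 of the 506 miRNAs. DESeq2 gave 0, 0 and 2 such members, beside 22, 24 and 121 miRNAs. Without SCG 7 d LPS replicate 2 edgeR again called 0 members. Then 5, 5 and 6 members had an unadjusted p under 0.05, beside 31, 38 and 49 of 514 miRNAs. The members' sum was 52757 ± 10036 CPM after LPS and 59725 ± 8580 CPM after saline at 4 h, and 58454 ± 6363 CPM after LPS and 65382 ± 4777 CPM after saline at 24 h (SD, n = 4 each). These ranges overlap. At 7 d the 3 LPS libraries that do not stand apart lay between 53757 and 62079 CPM, against 61960 to 66142 CPM in the 4 saline libraries.

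The SCG members with the smallest p were not called. At 4 h no member was apart between the groups, beside 1.38% of all miRNAs. There, miR-376a-3p had 9.10, 12.1, 4.00 and 5.78 CPM after LPS, against 36.7, 18.6, 8.07 and 4.88 CPM after saline (log2 fold change -1.06 ± 0.60). Its highest values were those of the 2 saline libraries with raised muscle miRNAs. The next at 4 h were miR-377-3p (-0.72 ± 0.44) and miR-341-5p (0.63 ± 0.41). At 24 h, miR-370-5p had 21.9, 28.1, 20.3 and 25.3 CPM after LPS, against 13.8, 14.9, 15.7 and 17.4 CPM after saline. Its groups did not overlap, but the log2 fold change of 0.68 ± 0.46 was not called, and without SCG 7 d LPS replicate 2 it was 0.68 ± 0.19 (adjusted p = 0.117; 1.17% of all miRNAs called, all higher). miR-543-3p was the other member whose groups were apart at 24 h, with all 4 LPS libraries below the 4 saline libraries, and 4.15% of all miRNAs were apart in either direction. miR-154-5p (0.57 ± 0.42) and miR-299a-3p (-0.26 ± 0.20) had the next smallest p.

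At 7 d in SCG the median log2 fold change of the members was -0.49 with all libraries, beside -0.05 for all miRNAs tested, and -0.06 without SCG 7 d LPS replicate 2. miR-485-5p had 555, 21.1, 678 and 630 CPM after LPS, against 1245, 915, 838 and 727 CPM after saline. All LPS libraries were below the saline ones, replicate 2 by far. Its log2 fold change was -1.06 ± 0.54 with all libraries and -0.59 ± 0.23 without that one (adjusted p = 0.458). miR-341-5p (-0.93 ± 0.46) and miR-370-5p (-0.91 ± 0.47) were the others of the 3 smallest p values and were -0.67 ± 0.46 and -0.47 ± 0.21 without it. Of the 80 members, 5 had all LPS libraries below all saline libraries (miR-382-5p, miR-411-5p, miR-434-5p, miR-485-5p and miR-541-5p), beside 9.49% of all miRNAs apart in either direction.

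In TG no member was called at 4 h or 24 h (0 of 74 each, also with DESeq2). Beside this, 0 and 0.372% of the 538 miRNAs tested were called (0.372% and 0.558% with DESeq2). An unadjusted p under 0.05 was found for 1 and 0 members, beside 15 and 23 of the 538. The members' sum was 38846 ± 1664 CPM after LPS and 39418 ± 2921 CPM after saline at 4 h, and 37034 ± 3054 CPM after LPS and 37151 ± 3051 CPM after saline at 24 h. At 4 h, miR-154-3p had 2.42, 3.37, 2.71 and 2.07 CPM after LPS, against 0.928, 0.554, 1.45 and 1.81 CPM after saline, which do not overlap but amount to a few counts per library (1.15 ± 0.46, adjusted p = 0.9995). miR-380-5p was apart in the opposite direction, with 33.8, 36.6, 33.6 and 37.2 CPM after LPS, against 45.2, 41.6, 39.7 and 41.4 CPM after saline (-0.24 ± 0.13). Of all miRNAs, 2.60% were apart at 4 h in either direction. miR-496a-3p was at 0.33 ± 0.16 at 4 h and -0.31 ± 0.16 at 24 h. At 24 h miR-543-5p (-1.09 ± 0.58) and miR-541-3p (0.49 ± 0.29) came next, both below 6 CPM in every library. No member was apart between the groups at 24 h, beside 2.04% of all miRNAs.

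At 7 d in TG, 2 of 74 members were called, both lower after LPS, beside 6.13% of all miRNAs (1.86% higher, 4.28% lower). miR-369-5p, near the distal end of the cluster, had 165, 172, 165 and 166 CPM after LPS, against 235, 241, 166 and 473 CPM after saline. The LPS libraries lie close together and the saline libraries do not, and saline replicate 3 is among the LPS values. The log2 fold change was -0.74 ± 0.20 (adjusted p = 0.0291). miR-495-3p had 292, 318, 332 and 333 CPM after LPS, against 439, 365, 412 and 685 CPM after saline, which do not overlap (-0.58 ± 0.16, adjusted p = 0.0300). The third smallest p was that of miR-673-3p (-0.60 ± 0.19, adjusted p = 0.0666), which was not called. Counted by library, 3 members had all 4 LPS libraries above all 4 saline libraries (miR-299a-3p, miR-409-3p and miR-665-3p) and 4 all below (miR-410-3p, miR-495-3p, miR-496a-3p and miR-673-3p), beside 6.69% of all miRNAs apart in either direction.

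The 7 d LPS libraries lay within the range of the earlier saline libraries. In the TG 4 h and 24 h saline libraries miR-369-5p was at 145 to 176 CPM, and miR-495-3p at 273 to 354 CPM. Against those 8 earlier saline libraries, the log2 fold change after LPS was 0.07 ± 0.17 for miR-369-5p and 0.05 ± 0.13 for miR-495-3p. Without TG 7 d saline replicate 4 neither was called (-0.31 ± 0.12, adjusted p = 0.143, and -0.29 ± 0.11, adjusted p = 0.150), beside 4.07% of all miRNAs. Without saline replicate 3, 10 members were called (9 lower, 1 higher), beside 16.1% of all miRNAs (5.84% higher, 10.2% lower). Leaving out any 1 of the 4 LPS libraries left 0 members called, beside 3.28% to 5.28% of all miRNAs. The 12 central neuron miRNAs summed to 31632 to 34073 CPM in the 4 LPS libraries, against 33288 to 61157 CPM in the 4 saline libraries, and 7 of the 12 were called lower after LPS (median log2 fold change -0.92). The 3 sensory neuron miRNAs summed to 71777 to 82637 CPM after LPS, against 57023 to 73825 CPM after saline. Their part in the result was not tested.

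The saline libraries were also compared among themselves. In TG at 7 d after saline, 14 of 74 members were called higher than at 4 h and 24 h after saline, and 0 lower, beside 13.6% of all miRNAs (10.4% higher, 3.16% lower). They included miR-369-5p (0.81 ± 0.17, adjusted p = 0.00346), miR-495-3p (0.63 ± 0.13) and miR-434-3p (0.32 ± 0.08), the 3 with the smallest p. In 13 of the 14, the highest 7 d library was replicate 4. Replicates 1, 2, 3 and 4 were above all 8 earlier libraries in 9, 11, 3 and 14 of the 14. miR-370-3p, for example, had 882, 1121, 813 and 1537 CPM at 7 d, against 734 to 940 CPM earlier. Without replicate 4, 2 of the 14 were called, miR-495-3p (0.37 ± 0.10) with miR-369-5p (0.40 ± 0.10), beside 5.91% of all miRNAs (4.99% higher, 0.924% lower). Among the 12 central neuron miRNAs, 10 were called higher in this comparison. In SCG, 0 of 80 members were called between saline at 7 d and earlier (0 of 506 miRNAs in all). An unadjusted p under 0.05 was found for 0 members, beside 22 of the 506. The smallest p were those of miR-494-3p (-0.78 ± 0.46), miR-299a-5p (-0.61 ± 0.41) and miR-382-3p (-0.65 ± 0.49).

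**Figure D5:**
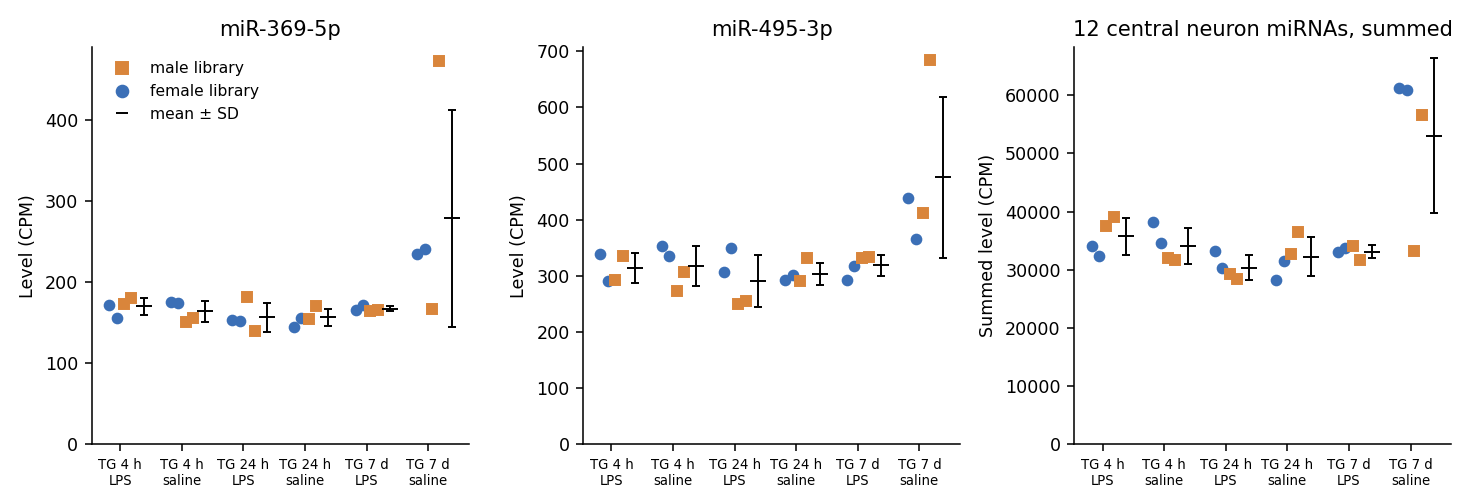
Levels of 2 members, miR-369-5p with miR-495-3p, and the summed level of 12 central neuron miRNAs, each in CPM (vertical axes), in the 24 TG libraries by time and treatment (horizontal axis). Squares are male and circles female libraries, and bars are mean ± SD of 4 libraries. In all 3 panels the mean of TG 7 d saline stands above the other groups, with replicate 3 at their level for miR-369-5p (166 CPM) and the central neuron sum (33288 CPM).

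Whether the response to LPS differed between the ganglia was tested directly over all 48 libraries. No member passed at 4 h, 24 h or 7 d (0 of 80 each), beside 0, 0 and 1.39% of 577 miRNAs. An unadjusted p under 0.05 was found for 0, 0 and 1 members, beside 22, 20 and 134 of the 577. Without SCG 7 d LPS replicate 2 again 0 members passed, beside 0, 0 and 2.88% of 590 miRNAs. Then 1, 0 and 11 members had an unadjusted p under 0.05, beside 32, 31 and 99 of the 590. With all 48 libraries DESeq2 called 1 of 80 members at 7 d, higher in TG, beside 12.5% of all miRNAs (3.29% higher, 9.19% lower). At 7 d the smallest p was that of miR-665-3p, of the Meg3 end, whose log2 fold change in TG exceeded that in SCG by 1.77 ± 0.58 (adjusted p = 0.0727). It was 1.39 ± 0.53 without SCG 7 d LPS replicate 2. miR-665-3p had 6.53, 3.005, 4.59 and 3.66 CPM after LPS in TG, against 1.09, 2.26, 2.80 and 2.87 CPM after saline, and 3.65, 0.325, 4.07 and 2.98 CPM after LPS in SCG, against 2.40, 5.43, 7.62 and 3.68 CPM after saline. The next were miR-485-5p (1.14 ± 0.56) and miR-673-5p (0.99 ± 0.51). At 4 h miR-154-3p (1.23 ± 0.66), miR-487b-5p (1.68 ± 1.06) and miR-154-5p (0.61 ± 0.48) had the smallest p, and at 24 h miR-341-5p (1.00 ± 0.76), miR-1197-3p (1.67 ± 1.29) and miR-1193-5p (-0.84 ± 0.69).

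Male and female libraries were also compared. In SCG, miR-341-5p, a sparse member of the Rian group, was higher in males: 2.32 to 8.34 CPM in males (median 4.56), against 0.325 to 5.41 CPM in females (median 2.02), ranges that overlap. The log2 fold change was 1.16 ± 0.25 (adjusted p = 0.0255), and it was the 1 call among 80 members, beside 0.988% of all miRNAs. miR-299a-3p (0.45 ± 0.11, adjusted p = 0.0662) and miR-1193-3p (0.55 ± 0.22) came next. Without SCG 7 d LPS replicate 2, which is female, 10 members were called higher in males and 1 lower (miR-376a-3p, -1.04 ± 0.25), beside 6.23% of all miRNAs (4.47% higher, 1.75% lower). The 10 included miR-770-3p, at the Meg3 end of the cluster, which was at 344 to 649 CPM in males (median 521), against 194 to 418 CPM in the 11 other female libraries (median 346; 0.66 ± 0.11), and miR-412-5p (0.46 ± 0.10).

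By treatment, the calls were unequal, and that difference was not tested. In the 12 saline SCG libraries alone 10 members were called higher in males, 8 of them also called above, beside 6.17% of all miRNAs (4.47% higher, 1.70% lower). In the 11 LPS libraries that do not stand apart 0 members were called, as were 0 of all 508 miRNAs tested. There 4 members had an unadjusted p under 0.05, beside 32 of the 508. The 3 SCG libraries already named for high muscle miRNAs (94343, 35374 and 20095 CPM) are female. For the muscle list in all 24 SCG libraries, the median log2 fold change of males over females was -2.30, and 0 of 3 tested miRNAs were called. Their part in the result was not tested. In TG, 0 of 74 members were called between males and females (0 of 538 miRNAs in all, and 0 members with DESeq2). An unadjusted p under 0.05 was found for 1 member, beside 24 of the 538. The smallest p were those of miR-1193-3p (-0.27 ± 0.12), miR-409-3p (-0.13 ± 0.07) and miR-667-5p (0.16 ± 0.10). Tested directly, the sex difference was not called as unlike between TG and SCG for any member with all 48 libraries (1.91% of all miRNAs), and for 2 members without SCG 7 d LPS replicate 2: miR-1193-3p (-0.63 ± 0.16) and miR-299a-3p (-0.34 ± 0.09), both adjusted p = 0.0195 and 3.05% of all miRNAs.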

How the data were processed

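The authors deposited a table of raw miRNA counts (whole numbers per mature miRNA, 48 libraries, 1774047 to 5592766 counts each) made from short RNA reads. Per the submitters' processing notes it involved FastQC 0.11.9 and build GRCm39, while the sources used here do not name an aligner or a counting program. The table holds no coordinates, and sequences and positions are RefSeq's on GRCm38.p6. Counts were tested with edgeR 4.0.16 in R 4.3.3 (quasi-likelihood F-test, TMM scaling, expression filter at a minimum count of 10, robust dispersion, Benjamini-Hochberg adjustment over all miRNAs tested, threshold 0.05, two-sided). Each ganglion was fitted with 6 groups and sex. TG was compared with SCG within each treatment with time and sex as terms, and interactions over 48 libraries. Arm ratios were tested with limma 3.58.1, and DESeq2 1.42.0 was an alternative. Scripts were tested on simulated data. Within a ganglion replicates are different mice, so p-values there measure the spread between mice. Across ganglia the libraries were fitted as independent, and any sharing of a mouse was not modelled. Floors cover counting error only. The tRNA fragment tables were not used.

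Groups came from the labels. The title of 1 TG library and the column of 1 SCG library spell LPS without its first letter, and these were read as LPS from that library's other labels. The members and marker lists were chosen with earlier results of these data known. Members named are those called in an LPS comparison, the 10 most abundant, up to 8 called members with the largest change in each direction between ganglia after saline, the 3 smallest p values elsewhere, called miRNAs of the region outside the list, and up to 6 called hairpins. miR-412-5p, miR-770-3p, miR-376a-3p, miR-543-3p (SCG, 24 h), the members listed only as apart at 7 d in SCG or TG, and the examples in SCG 7 d LPS replicate 2 were named after their values were seen.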

Additional observations from a re-analysis of the deposited data

Results flagged for a closer look

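In 156 groups of 4 libraries (the members' sum and 12 members named for their abundance or their call at 7 d, in 12 groups each), 1 library lay far from the other 3 in 15. Chance alone flags about 1 in 20 groups. No explanation was weighed.

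Of these, 9 were SCG 7 d LPS replicate 2 as the lowest: the members' sum (2933 CPM), miR-127-3p (418 CPM), miR-434-5p (387 CPM), miR-379-5p (444 CPM), miR-381-3p (203 CPM), miR-411-5p (264 CPM), miR-382-5p (75.5 CPM), miR-370-3p (39.7 CPM) and miR-369-5p (10.4 CPM). In the other 3 libraries of that group miR-127-3p was at 8189 to 9597 CPM and miR-369-5p at 456 to 499 CPM.

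The other 6 were spread over groups. miR-127-3p was highest in SCG 4 h LPS replicate 3 (10313 CPM, against 7372 to 7800 CPM) and lowest in SCG 7 d saline replicate 2 (9576 CPM, against 9796 to 9809 CPM). miR-381-3p was highest in TG 24 h LPS replicate 3 (1545 CPM, against 1298 to 1331 CPM) and in TG 7 d saline replicate 4 (2086 CPM, against 1340 to 1466 CPM). miR-411-5p was lowest in SCG 24 h LPS replicate 4 (1738 CPM, against 2148 to 2206 CPM) and highest in TG 4 h LPS replicate 1 (2711 CPM, against 1968 to 2093 CPM).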

How the results depend on the processing

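No paired analysis was possible because the labels give no replicate numbers and do not tie TG to SCG libraries by mouse. Of the counts of calls recomputed under alternatives, 117 stayed within 1.5 times the value reported and 27 did not. The 117 include counts of 0 that stayed at 0, as under every alternative for LPS in SCG and for LPS in TG at 4 h and 24 h. For LPS in TG at 7 d, the 2 calls (6.13% of all miRNAs) became 4 without the expression filter (3.81%) or with DESeq2 (10.2%). They became 0 with only the 8 libraries of that time (0.2%) and 0 against the earlier saline libraries (0.186%). With 1 library left out they were 0 to 10 (3.28% to 16.1%). The log2 fold change of miR-369-5p turned to 0.0713 against the earlier saline libraries and 0.0146 with saline replicates 1, 2 and 4 left out. That of miR-495-3p turned to 0.0509 against the earlier libraries. For TG saline at 7 d, leaving out 1 library gave 2 to 19 calls (5.91% to 23.9% of all miRNAs). Between the ganglia at 7 d only, 41 members were called after saline (42.9% of all miRNAs). There 0 were called after LPS (9.53% of all), with SCG 7 d LPS replicate 2 included. Over all 3 times after LPS, leaving out that library gave 65 calls (69.2% of all miRNAs), against 39 with it (51.6%). DESeq2 called 1 member (12.5% of all miRNAs) for the LPS effect at 7 d in TG against SCG. For sex in SCG, the 1 call (0.988% of all miRNAs) became 2 with relative log expression (RLE) scaling (1.38%), without the filter (2.92%) or with DESeq2 (4.94%). It became 11 without SCG 7 d LPS replicate 2 (6.23%) and 10 without that and SCG 4 h saline replicate 1 (6.76%). In saline libraries it was 10 (6.17%), and in LPS libraries 0 (0%). The last 3 alternatives, the test of sex between ganglia and the comparison of the ganglia without 6 saline libraries were chosen after seeing the data. That test of sex between ganglia gave 2 calls without SCG 7 d LPS replicate 2 (3.05% of all miRNAs), 2 with RLE (2.43%) and 3 with DESeq2 (3.47%). Except where an alternative has fewer libraries, the cause was not tested. Total counts limit members under about 1 CPM, which have few counts per library.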
